A study of Mus musculus with 12 samples.

Results

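The 9 genes Rara, Rarb, Rxra, Rxrg, Crabp1, Aldh1a2, Aldh1a3, Cyp26b1 and Dhrs3 encode receptors, a carrier and enzymes of retinoic acid signalling. They were followed in the mouse striatum before birth. All 9 were found by symbol in the deposited table, each with 1 probe set, out of 25428 probe sets in all. The data set compared striata of 6 wild type (WT) embryos with those of 6 Nestin-Cre (Foxp1-/-) embryos, called cKO here. Every embryo was on the C57BL/6J background and was taken at embryonic day 18.5, and the striata of both hemispheres were dissected. Each embryo was measured on 1 array, and the titles call the 6 samples of each group biological replicates. The question behind the comparison is how striatal transcripts change when Foxp1, a forkhead transcription factor, is lost. Nestin-Cre acts in neural progenitors, so neurons and glia descend from recombined cells, whereas vessels and meninges largely do not. The labels used here do not say whether WT embryos carried Cre or a floxed allele.

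Retinoic acid is made from vitamin A in steps. Retinol enters cells, dehydrogenases turn it into retinaldehyde, and the Aldh1a enzymes oxidise retinaldehyde to retinoic acid. Cyp26 enzymes degrade it, Dhrs3 returns retinaldehyde to retinol, and Crabp proteins bind retinoic acid in the cytoplasm. Nuclear RARs bind retinoic acid and pair with RXRs on DNA at direct repeats of a short half-site. In the developing striatum RARb and RXRg are the characteristic receptors of projection neurons, and the lateral ganglionic eminence that gives rise to them is a known site of retinoid signalling.

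Rarb is a textbook target of its own ligand, through a direct repeat of the half-site with 5 bases between the copies in the promoter of one of its transcripts. The half-site was searched as AGGTCA and in 3 variants, GGGTCA as well as AGTTCA as well as GGTTCA, on both strands, in the 250 bases before each start site listed by RefSeq (GRCm38.p6). A start site was listed for 8 of the 9 genes, with 15 windows among them. The pair with 5 bases between the half-sites was in 1 of the 15, that of Rarb, and in 29 of all 32851 windows (0.0883%). In Rarb it reads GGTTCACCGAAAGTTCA and runs from 53 to 37 bases before the start site, on the strand of the gene. Cyp26a1, the retinoic acid hydroxylase gene closest in role to Cyp26b1, also holds the pair, on the opposite strand. The windows of Rarb (chr14:16575477-16575726, minus strand), of the first listed start of Rxrg (chr1:167598112-167598361, plus strand) and of Cyp26a1 (chr19:37697558-37697807, plus strand) show the receptor gene with the pair, the receptor gene that fell and the comparison. Capitals mark every half-site on either strand.
Rarb: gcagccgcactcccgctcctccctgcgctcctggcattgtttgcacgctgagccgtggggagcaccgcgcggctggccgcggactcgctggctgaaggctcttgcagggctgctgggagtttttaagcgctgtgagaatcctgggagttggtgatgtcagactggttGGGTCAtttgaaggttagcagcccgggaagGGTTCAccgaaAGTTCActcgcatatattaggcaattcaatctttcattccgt
Rxrg: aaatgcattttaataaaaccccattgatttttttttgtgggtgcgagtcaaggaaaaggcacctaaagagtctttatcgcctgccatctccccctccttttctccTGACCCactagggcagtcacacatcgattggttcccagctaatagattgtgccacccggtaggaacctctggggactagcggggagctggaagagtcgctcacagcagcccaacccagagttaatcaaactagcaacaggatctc
Cyp26a1: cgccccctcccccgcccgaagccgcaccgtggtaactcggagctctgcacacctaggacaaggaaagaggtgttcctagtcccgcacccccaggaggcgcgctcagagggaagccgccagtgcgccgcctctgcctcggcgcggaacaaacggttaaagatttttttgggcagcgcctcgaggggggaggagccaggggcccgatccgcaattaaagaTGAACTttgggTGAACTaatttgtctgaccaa
The single half-site alone was in 12694 of the 32851 windows (38.6%) and in 5 of the 15 member windows, so its presence in Rxrg is common. A forkhead core, spelled TGTTTAC or, with changes at its second or last base, as TGTTTAT and also TATTTAC and also TATTTAT on either strand, was in 4480 windows (13.6%). It was in 1 of the 15 member windows, that of the first listed start of Dhrs3. A match describes these letters and is not a shown binding site.

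All values below are RMA expression values on the log2 scale, in which 1 unit is a doubling, and a change is cKO minus WT with its standard error (SE). RMA gives each array the same distribution and compresses differences of dim probe sets. Each change was tested with limma, a linear model whose variances borrow strength across probe sets, and the adjusted p was obtained by the Benjamini-Hochberg method from all 25428 probe sets and called below 0.05. Foxp1 itself fell from 11.14 ± 0.17 (SD, n = 6) to 10.23 ± 0.08 (SD, n = 6), and no cKO array reached the WT range (limma adjusted p = 0.000170). Correlations between arrays ran from 0.992 to 0.998. All 10 measured markers of projection neurons lay above the median of all probe sets, as did 4 of 6 measured markers of the neighbouring cortex. In bulk tissue, fewer cells of a type and less RNA per cell cannot be told apart.

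Of the 9 genes, 1 fell and 0 rose. The gene that fell was Rxrg, and Rarb and Dhrs3 had the next smallest p values with a negative change. Over all probe sets 0.728% were called, 0.429% as lower and 0.299% as higher. Before adjustment, limma's p was under 0.05 for 3 of the 9 as lower and 0 as higher, against 5.67% of all probe sets lower. The median change of the 9 was -0.092, and that of all probe sets was -0.00077. Of the 9, 6 lay above the median level of all probe sets, and the other 3, Rxra, Aldh1a2 and Aldh1a3, lay where RMA shows little change.

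**Figure D1:**
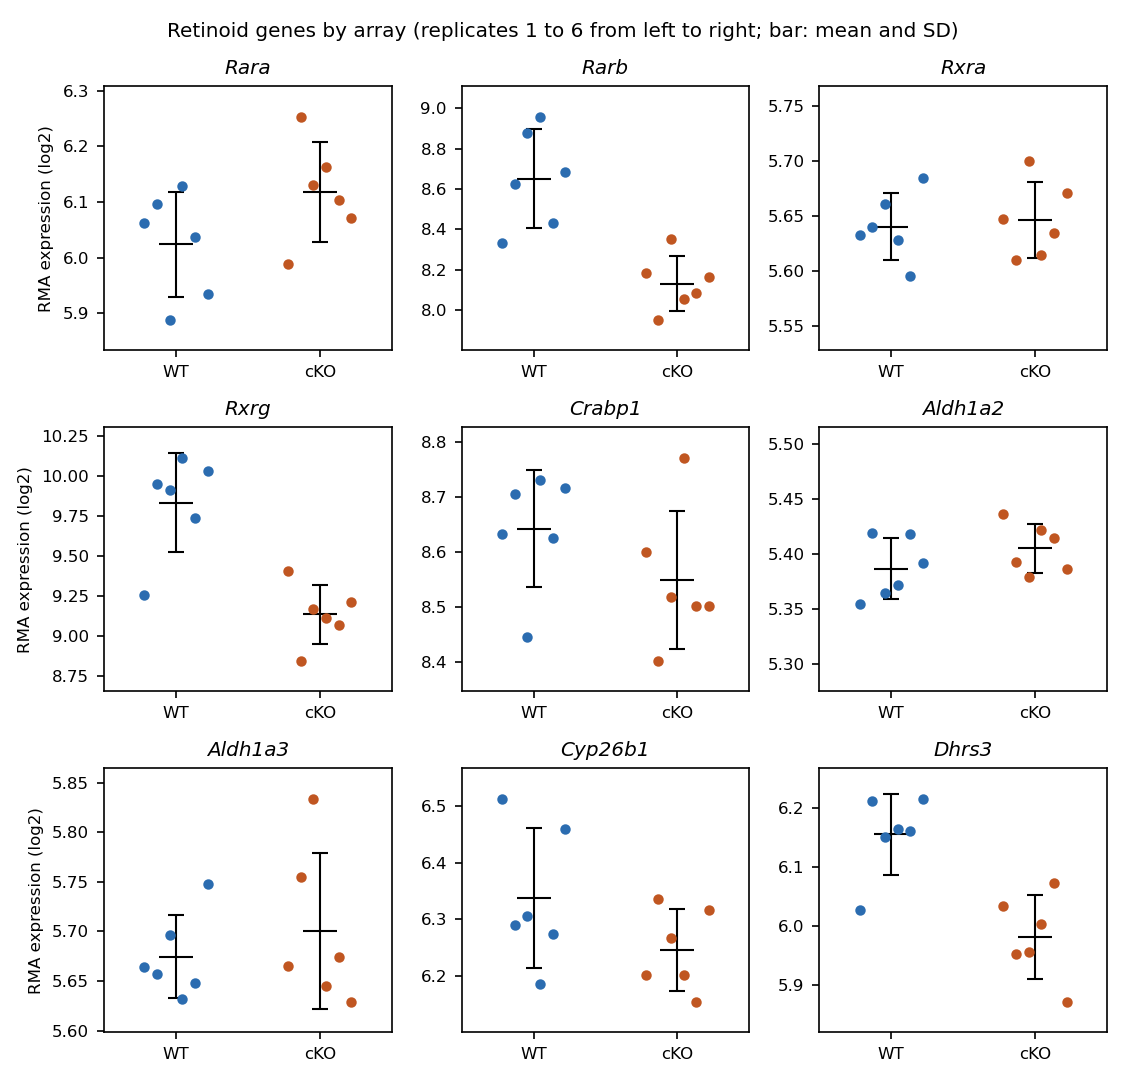
RMA expression (log2, each panel with its own axis that does not start at 0) of the 9 retinoid genes in 6 WT and 6 cKO arrays, with points for arrays and bars for the mean and SD. Rxrg, Rarb and Dhrs3 are lower in cKO apart from WT replicate 1, whose values of 9.26, 8.33 and 6.03 lie among the cKO arrays, and the other 6 genes overlap broadly.

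Rxrg encodes RXRg, a retinoid X receptor that serves as partner of RARs and of other nuclear receptors. WT replicates 1 to 6 read 9.26, 9.95, 9.91, 10.12, 9.74 and 10.03. In cKO the values were, in the same order, 9.40, 8.85, 9.17, 9.12, 9.07 and 9.21. Of the WT arrays 5 lay above every cKO array, and WT replicate 1 lay inside the cKO range. The mean fell from 9.83 ± 0.31 (SD, n = 6) to 9.14 ± 0.18 (SD, n = 6), a change of -0.70 ± 0.14 (SE, limma adjusted p = 0.0440), or 1.62-fold lower. The 95% interval of the change ran from -0.99 to -0.40. The call was close to the threshold: it held in 8 of 23 alternatives, and the change stayed between -0.81 and -0.63 in all 23. With 1 array left out it held without WT replicate 1 (adjusted p = 0.00304) and without cKO replicate 1 (adjusted p = 0.0493). Without any of the other 10 arrays the adjusted p ran from 0.0670 without WT replicate 5 to 0.113 without cKO replicate 5.

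Rarb encodes RARb, the retinoic acid receptor most associated with the striatum. Its WT replicates 1 to 6 read 8.33, 8.62, 8.88, 8.96, 8.43 and 8.69. In the cKO embryos it read 8.19, 7.95, 8.35, 8.06, 8.08 and 8.16. The groups met at a single point, since cKO replicate 3 lay just above WT replicate 1 and the other 5 cKO arrays lay under the WT range. The WT mean was 8.65 ± 0.24 (SD, n = 6) and the cKO mean 8.13 ± 0.14 (SD, n = 6). The change of -0.52 ± 0.11 (SE), or 1.43-fold, just missed the threshold (limma adjusted p = 0.0522), with a 95% interval from -0.75 to -0.29. It passed in 6 of 23 alternatives, among them without WT replicate 1 (adjusted p = 0.0200) and without WT replicate 5 (adjusted p = 0.0471). The adjusted p over the 23 ran from 0.0127 to 0.266, and the change was negative in each.

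Rarb and Rxrg also tended to vary together from embryo to embryo, although only the rank correlation had an adjusted p under 0.05. After each group's mean was subtracted, their deviations over the 12 arrays had a Pearson r of 0.79 (permutation p = 0.00185, adjusted p = 0.0666 over the 36 pairs of the 9 genes). Spearman's rho was 0.84 (permutation p = 0.00111, adjusted p = 0.0400). Within the 6 WT arrays r was 0.83, and within the 6 cKO arrays it was 0.65. Without WT replicates 1 and 4, the arrays farthest from the median of Rarb, r was 0.59, so part of the relation rested on those arrays. No other pair had an adjusted p under 0.05 by either measure.

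**Figure D2:**
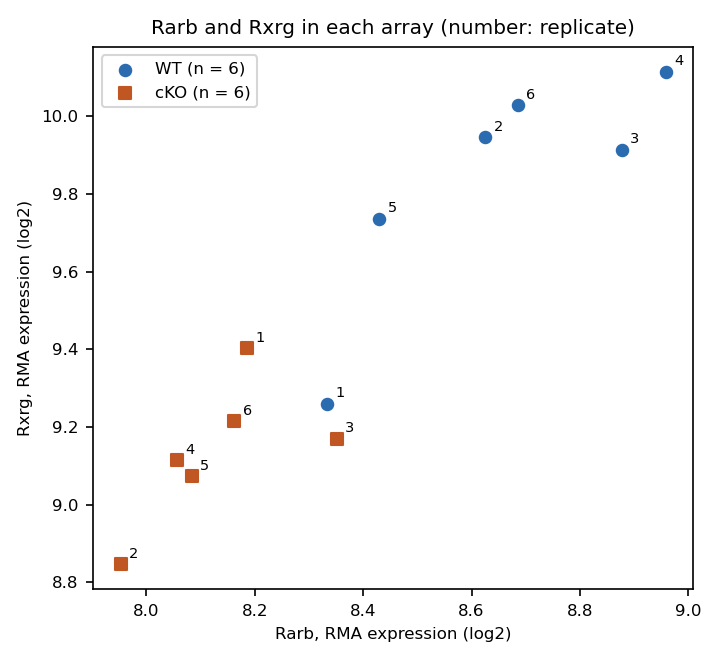
RMA expression (log2) of Rarb (x axis) against Rxrg (y axis) in each array, with circles for WT, squares for cKO and the replicate number beside each point. The 5 WT arrays other than replicate 1 sit at the upper right (Rxrg from 9.74 to 10.12), and WT replicate 1 sits among the cKO arrays at 8.33 and 9.26.

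The other receptors in the set gave no call. Rara encodes RARa, a broadly expressed RAR. Its WT replicates 1 to 6 read 6.06, 6.10, 5.89, 6.13, 6.04 and 5.93, and its cKO replicates 5.99, 6.25, 6.13, 6.16, 6.10 and 6.07. The groups overlapped, and the change was 0.09 ± 0.05 (SE, limma adjusted p = 0.540), with a 95% interval from -0.01 to 0.20. Rxra encodes the widely expressed RXRa and lay between 5.60 and 5.68 in WT arrays and between 5.61 and 5.70 in cKO arrays. Its change was 0.01 ± 0.02 (adjusted p = 0.945), at a level below the median probe set. The remaining receptor genes, outside the set, had values of 0.02 ± 0.03 for Rarg and -0.01 ± 0.03 for Rxrb.

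Dhrs3 encodes a retinaldehyde reductase that limits the making of retinoic acid and is itself induced by it in many tissues. WT replicates 1 to 6 read 6.03, 6.21, 6.15, 6.16, 6.16 and 6.22. The matching series for cKO was 6.04, 5.95, 5.96, 6.00, 6.07 and 5.87. WT replicate 1 again lay inside the cKO range, and the other 5 WT arrays lay above every cKO array. WT averaged 6.16 ± 0.07 (SD, n = 6) and cKO 5.98 ± 0.07 (SD, n = 6). The change of -0.17 ± 0.04 (SE) missed the threshold (limma adjusted p = 0.0721), with a 95% interval from -0.26 to -0.09. Without WT replicate 1 it passed (adjusted p = 0.0200), and over all 23 alternatives the adjusted p ran from 0.0200 to 0.251.

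The enzymes that make retinoic acid were near the lower end of the scale. Aldh1a2, the main enzyme of this step in early embryos and meninges, lay between 5.35 and 5.42 in WT arrays and between 5.38 and 5.44 in cKO arrays. Its change was 0.02 ± 0.02 (SE, limma adjusted p = 0.724). Aldh1a3, the enzyme known from the lateral ganglionic eminence, lay between 5.63 and 5.75 in WT arrays and between 5.63 and 5.83 in cKO arrays, a change of 0.03 ± 0.03 (adjusted p = 0.844). Both lay below the median of all probe sets, 5.71, so a difference between the groups would be hard to see. Cyp26b1, the retinoic acid hydroxylase of the set, lay between 6.19 and 6.51 in WT arrays and between 6.15 and 6.34 in cKO arrays. Its groups overlapped, and the change was -0.09 ± 0.05 (adjusted p = 0.595), with a 95% interval from -0.21 to 0.03.

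Crabp1 encodes a cytoplasmic retinoic acid binding protein. WT replicates 1 to 6 read 8.63, 8.71, 8.45, 8.73, 8.62 and 8.72, and those of cKO 8.60, 8.40, 8.52, 8.77, 8.50 and 8.50. The arrays of both groups were intermixed. The change was -0.09 ± 0.06 (SE, limma adjusted p = 0.645), with a 95% interval from -0.23 to 0.04. Averaged over the 9 genes, array means lay between 6.83 and 6.99 in WT arrays and between 6.72 and 6.81 in cKO arrays. Over the 6 genes other than Rarb, Rxrg and Dhrs3 the groups overlapped. Array means of the 6 ran from 6.23 to 6.32 in WT arrays and from 6.25 to 6.30 in cKO arrays. Rarb, Rxrg and Dhrs3 were the genes with the smallest p here, so the overlap follows in part from leaving them out.

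The rest of the retinoid pathway gave no call. Of 26 listed genes of uptake, transport and metabolism and the 2 remaining receptors among them, 25 were measured, and in limma 0 passed in either direction. Before adjustment 2 had a p under 0.05 as lower and 0 as higher, against 1442 and 1287 of all 25428 probe sets. Of the 25, 11 lay above the median level. The 2 lower genes were Stra6 and Rdh13. Stra6, the cell-surface receptor that takes up retinol from its plasma carrier, read 6.45, 6.89, 7.07, 6.88, 7.06 and 7.16 in WT replicates 1 to 6. In the cKO embryos it read 6.50, 6.48, 6.32, 6.47, 6.57 and 6.46. WT replicate 1 lay among the cKO arrays here too, and the other WT arrays lay above all of them. The change was -0.45 ± 0.10 (SE, limma adjusted p = 0.0806), and without WT replicate 1 it was -0.54 ± 0.06 (adjusted p = 0.00162). The value for Rdh13, a retinol dehydrogenase family gene, was -0.08 ± 0.02 (adjusted p = 0.0911). Ttr, which encodes the plasma carrier of the retinol binding protein and is a marker of choroid plexus, read 9.96 in cKO replicate 1 and from 5.39 to 5.57 in the other 11 arrays. Of the other 6 choroid plexus markers measured, 4 (Kl, Kcnj13, Otx2 and Aqp1) were also highest of all arrays in cKO replicate 1. The mean of the 6 was 5.61 there and between 5.53 and 5.57 in the other arrays. Without that array the change of Rxrg was -0.75, and the part of choroid plexus in it was not tested further.

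**Figure D3:**
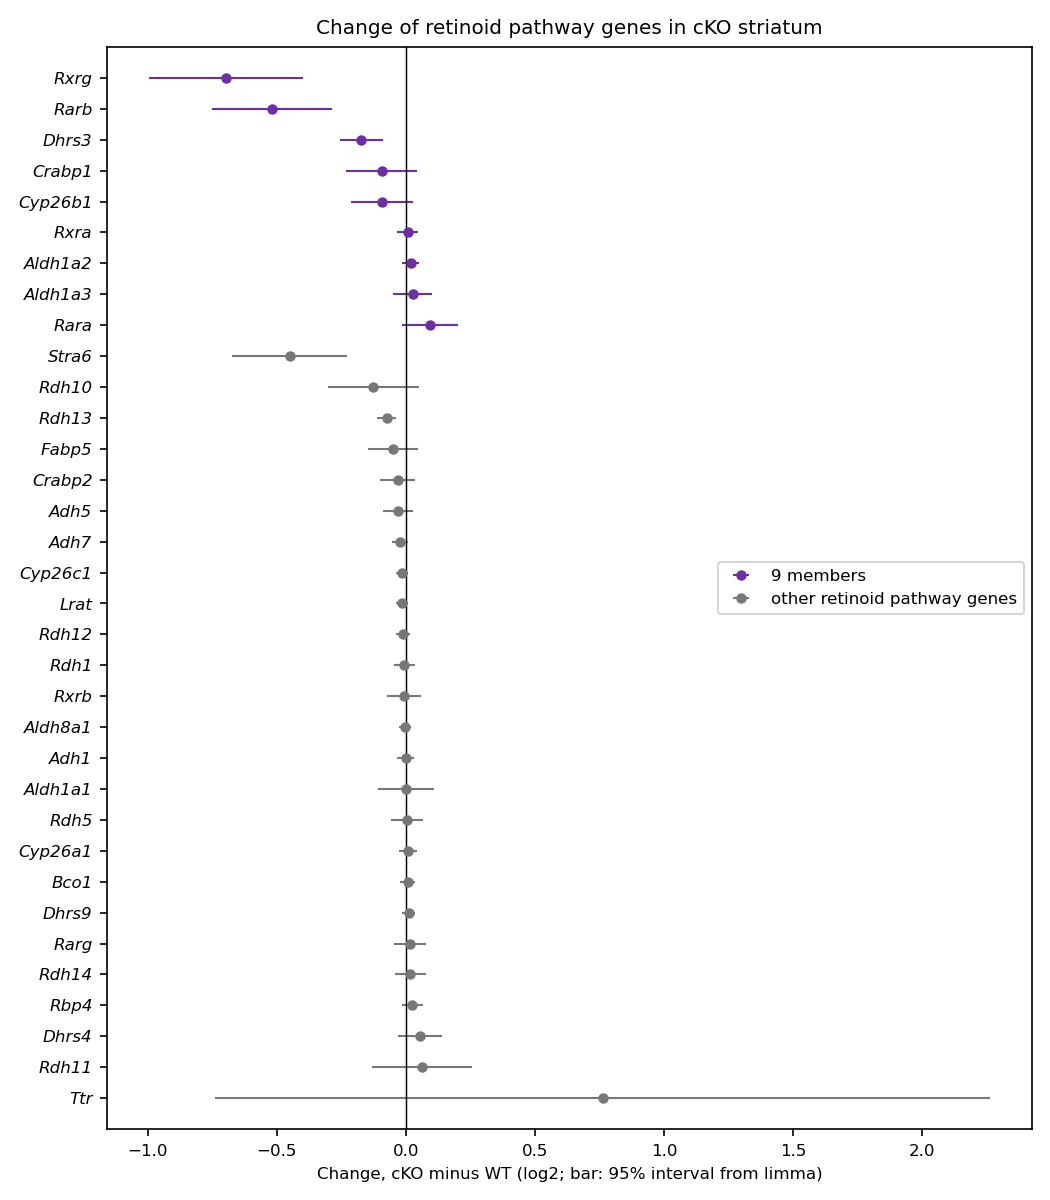
Change in cKO (log2, x axis) of the 9 retinoid genes and 25 other retinoid pathway genes (y axis), with limma's 95% interval as bars. Rxrg (-0.70), Rarb (-0.52) and Stra6 (-0.45) have the most negative values, and the wide bar of Ttr comes from cKO replicate 1.

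The same array recurred in these results. Rxrg, Rarb, Dhrs3 and Stra6 were each lowest of the WT group in WT replicate 1. Its Foxp1 value of 11.01 lay within the range of the other WT arrays, 10.89 to 11.39, and far above the highest cKO array, 10.36. Among all 109 probe sets called lower in cKO, WT replicate 1 was the lowest WT array in 31, WT replicate 5 in 36 and WT replicate 2 in 23. The mean of the 10 projection neuron markers was 8.50 in WT replicate 1, 8.52 in WT replicate 5 and up to 8.77 in the other WT arrays, and it lay between 8.41 and 8.58 in cKO arrays. Of the 10 markers, 5 were lowest of the WT group in WT replicate 1, Ppp1r1b, Pde10a and Tac1 among them, and 2 (Rgs9 and Gad1) were highest there. Whether this bears on the retinoid genes was not tested. The mean correlation of WT replicate 1 with its own group was 0.9962, against 0.9945 for WT replicate 3 and 0.9953 for WT replicate 6. The calls that changed without that array are given both ways. Leaving out the lowest WT array of a gene enlarges its fall by construction, so passing without it is no added support.

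**Figure D4:**
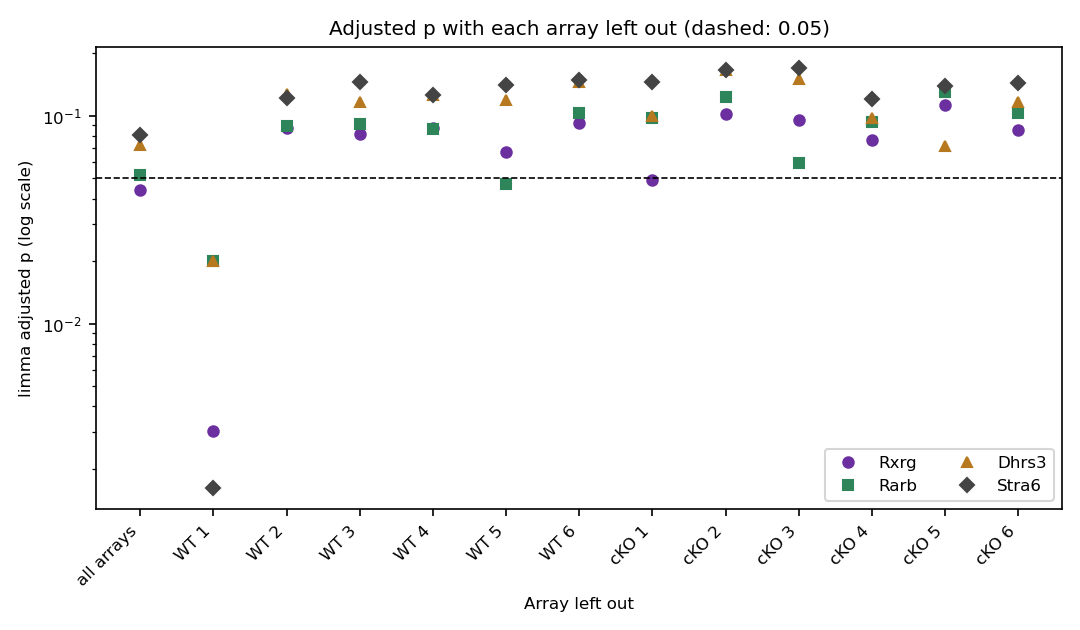
limma adjusted p (y axis, log scale) of Rxrg, Rarb, Dhrs3 and Stra6 with all arrays and with each array left out (x axis), with the threshold of 0.05 dashed. Without WT replicate 1, the lowest WT array of each gene, all 4 genes pass. Without any other single array only Rxrg (without cKO replicate 1) or Rarb (without WT replicate 5) does.

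Among the listed genes that act with the receptors 2 were called lower, against 0.429% of all probe sets. Of 7 measured coregulators 1 fell, Ncoa1, which encodes a nuclear receptor coactivator. Its WT replicates read 9.99, 10.13, 10.02, 10.19, 10.03 and 10.30, and its cKO replicates 9.85, 9.70, 9.81, 9.84, 9.83 and 9.85. No cKO array reached the lowest WT array, a separation found in the lower direction for 0.822% of all probe sets. The change was -0.30 ± 0.05 (SE, limma adjusted p = 0.0232). It passed in 16 of 23 alternatives, over which the adjusted p ran from 0.00736 to 0.0908. With 1 array left out it missed the threshold without WT replicate 2 or 4 or cKO replicate 2, 3 or 5 (adjusted p from 0.0548 to 0.0597). Nrip1, a corepressor gene that retinoic acid induces, had the next smallest p, with a value of 0.18 ± 0.05 (adjusted p = 0.236).

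Of 11 measured nuclear receptors that pair with RXRs or compete for their sites, 1 fell, the thyroid hormone receptor gene Thrb. WT replicates 1 to 6 read 5.81, 5.95, 5.95, 6.00, 5.92 and 5.98, and those of cKO 5.78, 5.73, 5.72, 5.77, 5.74 and 5.80. The groups did not overlap, and WT replicate 1 was the lowest WT array and the nearest to them. The change was -0.18 ± 0.03 (SE, limma adjusted p = 0.0189), and it passed in 17 of 23 alternatives. With 1 array left out it missed the threshold without cKO replicate 2, 3 or 5 (adjusted p from 0.0533 to 0.0573). Over all 23 alternatives the adjusted p ran from 0.00122 to 0.102. Nr4a1, an orphan receptor that pairs with RXRs, had a value of -0.22 ± 0.06 (adjusted p = 0.145). Its relative Nr4a2, which also pairs with RXRs, had a value of 0.64 ± 0.20 (adjusted p = 0.225), the largest in size of the 11. Before adjustment 2 of the 11 had a p under 0.05 as lower and 1 as higher, against 1442 and 1287 of all 25428 probe sets.

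A list of genes known to respond to retinoic acid gave no call. Of 10 measured, 0 passed in limma. Rarb, Dhrs3 and Nrip1, described above as induced by retinoic acid, were counted in other lists and are not among the 10. Their changes were -0.52, -0.17 and 0.18, so the counts here do not cover all responsive genes. Before adjustment 1 of the 10 had a p under 0.05 as higher and 0 as lower, against 1287 of all 25428 probe sets as higher. A positive change was found for 8 of the 10, against 12401 of all probe sets. Apart from Zfp503 these positive changes were at most 0.04. The median change of the 10 was 0.014, and 6 of them lay above the median level of all probe sets. Zfp503, a striatal zinc finger gene, had a value of 0.24 ± 0.06 (adjusted p = 0.102), and every WT array read less than the lowest cKO array, a separation found in the higher direction for 0.562% of probe sets. Drd2, a dopamine receptor gene with a known retinoic acid response element, had a value of 0.04 ± 0.07 (adjusted p = 0.896) and a 95% interval from -0.11 to 0.18. The value for Drd1 was 0.04 ± 0.15 (adjusted p = 0.956) and that for Meis1, a homeobox gene induced by retinoic acid, was -0.11 ± 0.08 (adjusted p = 0.700). Cyp26a1, whose window is printed above, had a WT mean of 5.37, close to the lowest value of the table (5.21), and a change of 0.01 ± 0.02 (adjusted p = 0.914). Of the 28 genes with the half-site pair in a window, 15 were measured, Rarb among them. Of the 15, 1 was called, the predicted gene Gm14133 (-0.18, limma adjusted p = 0.0442), against 0.728% of all probe sets. Before adjustment 3 had a p under 0.05 as lower, Rarb among them, and 1 as higher, against 1442 and 1287 of all 25428 probe sets. The other lower genes were Gm14133 and Syndig1 (-0.17). Their windows start at 149798771 and 149830533 on chromosome 2, so they may not be independent. The median change of the 15 was -0.015.

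The genes whose deviations from the group means were most like those of Rxrg over the 12 arrays were Rasgef1b (r = 0.93), Thrb (r = 0.89), Fbxo32 (r = 0.87) and Exosc2 (r = 0.86), out of 12286 named genes above the median level. Spearman's rho for the 4 was 0.88, 0.87, 0.78 and 0.73. Without WT replicate 1 and cKO replicate 2, the arrays farthest from the median of Rxrg, r was 0.84, 0.71, 0.67 and 0.54. The most opposed were Sez6l (r = -0.96) and Gpr165 (r = -0.95). For Rarb the most alike were Plk2 (r = 0.94), Brinp1 (r = 0.91), Actn2 (r = 0.90) and Clgn (r = 0.88), and the most opposed Lman1 (r = -0.92) and Myh10 (r = -0.89). Of these 12 genes Thrb and Brinp1 fell in cKO (Brinp1 by 0.72 on the log2 scale, adjusted p = 0.0117). These genes were picked as the extremes of the ranking, so the correlations are a description, and the arrays share 1 normalization.

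Markers of other cells were compared on the same arrays. Among the projection neuron markers Pde10a fell (-0.59 ± 0.09, limma adjusted p = 0.00869), while the values were -0.48 ± 0.11 for Ppp1r1b (adjusted p = 0.0718) and -0.55 ± 0.12 for Tac1 (adjusted p = 0.0653). Penk, which encodes the precursor of enkephalin, had a value of 0.38 ± 0.08 (adjusted p = 0.0501), and Gad1, which encodes an enzyme of GABA synthesis, one of 0.16 ± 0.04 (adjusted p = 0.128). Of the 10 measured, 1 fell and 0 rose, against 0.429% and 0.299% of all probe sets. Among the 10 changes 5 were negative and 5 positive. Before adjustment 3 had a p under 0.05 as lower and 2 as higher, against 1442 and 1287 of all 25428 probe sets. Mean levels of the 6 cortical markers lay between 6.03 and 6.39 in WT arrays and between 5.99 and 6.78 in cKO arrays, with all 6 changes positive and 0 calls. With the mean of 3 cortical genes as a covariate, the change was -0.71 ± 0.17 for Rxrg (limma adjusted p = 0.187) and -0.45 ± 0.13 for Rarb (adjusted p = 0.266). The number of probe sets called in that fit was 56. With the mean of 5 meningeal genes as a covariate, the change was -0.70 ± 0.14 for Rxrg (limma adjusted p = 0.0723), beside -0.70 without it. For Rarb it was -0.51 ± 0.11 (adjusted p = 0.0785), beside -0.52. Of those 5 genes only Col1a1 lay above the median level. This covariate could therefore hardly follow the meninges, and the similar values say little about them. Mean levels of the 6 radial glia markers lay between 9.06 and 9.30 in WT arrays and between 9.27 and 9.42 in cKO arrays, and those of 5 progenitor markers from 8.39 to 8.83 and from 8.53 to 8.82. All 6 radial glia changes and all 5 progenitor changes were positive, with 0 calls. Before adjustment 3 of the 6 and 1 of the 5 had a p under 0.05 as higher. The same held for 2 of the 6 cortical markers and for 1287 of all 25428 probe sets. Medial ganglionic eminence interneuron markers lay between 7.86 and 8.02 in WT arrays and between 8.01 and 8.17 in cKO arrays. Of the 6 measured, 1 rose, the transcription factor gene Maf (0.57 ± 0.09, limma adjusted p = 0.0150), against 0.299% of all probe sets. The values for the other 5 were -0.02 for Lhx6, -0.02 for Lhx8, 0.01 for Nkx2-1, 0.01 for Chat and 0.14 for Sst. Meningeal markers, which mark a known source of retinoic acid, lay between 5.57 and 5.61 in WT arrays and between 5.57 and 5.63 in cKO arrays, with 2 of 8 above the median level. Endothelial markers lay between 6.53 and 6.65 in WT arrays and between 6.54 and 6.67 in cKO arrays. The part of these cells in the retinoid results was not tested beyond the covariates.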

How the data were processed

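Gene expression was measured in 12 striata, 6 WT and 6 cKO, on 1 biotin-labelled array each. Per the submitters' processing notes, the deposited values are RMA expression on the log2 scale; the sources used here give no array model, software or probe definition. The sorted values of the arrays agreed to within 0.00187, so the columns had been put on 1 distribution. The platform annotation gave gene symbols, brought up to date with RefSeq's GRCm38.p6 gene table: 24674 of 25428 probe sets were named. The test was limma 3.58.1 (R 4.3.3), fitted with lmFit and two-sided eBayes statistics, without covariates or a filter. In simulated data of the same size and spread, 79.2%, 97.0% and 99.6% of changes of 0.25, 0.5 and 1 were recovered, with 5.54% false calls. The median residual SD of all probe sets was 0.047, against group SDs of 0.31 (WT) and 0.18 (cKO) for Rxrg. Those of Rarb were 0.24 (WT) and 0.14 (cKO), so the recovered shares need not hold for genes this variable. The number of arrays limits the precision.

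The 9 genes and all lists were chosen with earlier results of these data known. Named outside the 9 were genes of each pathway list past the threshold or, where fewer than 2 passed, the 2 with the smallest p, the markers, and for Rxrg and Rarb the 4 most and 2 least correlated genes. Rarg, Rxrb, Cyp26a1, Ttr, Nr4a2, Drd1, Drd2, Gm14133 and Syndig1 were added after their values were seen. Correlation p values came from 100000 permutations of the arrays, two-sided. Deviations were permuted freely across both groups, so these p values do not allow for the subtracted group means or for unequal spreads of the groups. Promoter windows were read from RefSeq (GRCm38.p6). Not analysed here were 1 pathway gene, 2 coregulators, 1 receptor, 1 responsive gene, 2 projection neuron markers, 1 cortical, 1 progenitor, 1 interneuron and 1 Y-linked gene. Alternatives were quantile normalization, centring on the median, no dim probe sets, a prior that was trended and robust, weighted arrays, a block for the replicate number, Y-linked, cortical and meningeal levels as covariates, each array left out, named probe sets only and a threshold of 0.01. Quantile normalization and centring barely alter arrays already on 1 distribution, and keeping named probe sets only leaves out 754 of 25428. A pass in these settings therefore adds little. Leaving out WT replicates 3 and 6 together, the arrays least correlated with their group, was added after the data were seen.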

Additional observations from a re-analysis of the deposited data

Results flagged for a closer look

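Values of 28 genes were screened in both groups for an array far from its group, which makes 56 sets of 6 arrays, and chance alone flags about 1 in 20 of such sets. There were 5. Dhrs3 in WT replicate 1 was 6.03, with the next WT array at 6.15 and the highest at 6.22. Crabp1 in WT replicate 3 was 8.45, against 8.62 to 8.73 in the other WT arrays. Ttr in cKO replicate 1 was 9.96, with the next cKO array at 5.54. Ncoa1 in cKO replicate 2 was 9.70, against 9.81 to 9.85 in the other cKO arrays. Drd1 in cKO replicate 2 was 6.54, against 6.82 to 6.96 in the others.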

How the results depend on the processing

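The direction of Rxrg, Rarb, Dhrs3, Rara, Crabp1, Cyp26b1 and Aldh1a2 was the same in every alternative in which each was fitted. Rxra, which had 0.0060, turned to -0.0030 without WT replicate 5 and to -0.0048 without cKO replicate 3, and Aldh1a3 to -0.00080 without cKO replicate 3. Over all single arrays left out, Rxra ran from -0.0048 to 0.0148 and Aldh1a3 from -0.00080 to 0.0407. The number of the 9 genes called, 1 in the reported fit, was 3 with dim probe sets left out or with a trended robust prior and 2 with array weights. It was 0 with the cortical or the meningeal covariate, at a threshold of 0.01 and without WT replicates 3 and 6. With the Y-linked covariate it was 1, which was Rarb (limma adjusted p = 0.0354) and not Rxrg (0.0709). With single arrays left out it ran from 0 to 3. Of the other 53 pathway genes measured, 2 were called, against 4 with dim probe sets left out, 0 with the cortical covariate, 0 at a threshold of 0.01, 1 without WT replicates 3 and 6, and 0 to 3 with single arrays left out. Over all probe sets the count of 185 was 278 with dim probe sets left out, 56 with the cortical covariate, 61 at a threshold of 0.01 and 106 to 227 with single arrays left out. With the replicate number as a block these counts were 0, 0 and 64; Rxrg had a limma adjusted p of 0.196 and Rarb one of 0.119. Same-numbered arrays did not deviate together (correlations from -0.23 to 0.16), and no WT array was closest to the cKO array of its own number. Low correlations cannot exclude a pairing, and the labels used here do not say whether the numbers pair the samples. Fewer probe sets tested and fewer residual degrees of freedom are part of these settings, and other causes were not tested. The Y-linked and cortical covariates used 3 of 4 planned genes each. For probe sets near the floor, Aldh1a2, Aldh1a3 and Rxra among them, signal over background limits what can be seen.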
